A study of Sus scrofa domesticus with 4 samples.

Results

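Chemokines, interleukins, tumor necrosis factor (TNF) family members, their receptors and the SOCS inhibitors of cytokine signalling were examined in the anterior pituitary of early pregnant and cyclic pigs. Members were all non-control probes whose RefSeq accession carries a pig gene symbol beginning with CCL, CXCL, CCR, CXCR, SOCS or TNF, or with IL and a digit. That rule gave 122 of the 43603 probes, for 86 genes, and no measured value entered it. The samples were 8 mature gilts (Large White x Polish Landrace), 4 in early pregnancy and 4 in the estrous cycle, all killed 15 to 16 days after estrus began. Pregnant gilts had been bred naturally and carried conceptuses. Their tissue was compared on 4 two-colour Agilent arrays, each with 1 pregnant gilt in 1 dye and 1 cyclic gilt in the other, so an array was 1 pair of animals and the number of arrays limits the precision.

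Chemokines are small secreted proteins that draw leukocytes along a gradient, and they act on G protein-coupled receptors of the CCR and CXCR families. Interleukins and TNF family ligands act on other receptors that signal through JAK and STAT proteins or through NF-kappaB, and SOCS proteins are feedback inhibitors of the JAK and STAT route. In the anterior pituitary the folliculostellate cells are a known source of interleukin-6, and cytokines that use the shared receptor chain gp130 act on hormone-producing cells.

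Ratios below are log2 of pregnant over cyclic intensity after normalization within each array, with the standard error of a limma fit that also holds a dye effect for each gene. The label fields give pregnant RNA the green dye Cy3 on arrays 1 and 3 and the red dye Cy5 on arrays 2 and 4, and this assignment was used. The labelling protocol's text describes Cy3 for pregnant RNA throughout, which would turn the ratios of arrays 2 and 4, so the value under that reading is given beside each gene that the results turn on. Across all probes 50.5% to 60.5% were well above background in the pregnant channels and 52.6% to 66.6% in the cyclic channels, and 0 spots were saturated. Hormone genes of the anterior lobe were all measured (7 of 7), as were 10 of 10 macrophage markers with a probe.

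Chemokine ligands were measured in a larger share of their genes than interleukins and interleukin receptors were. A probe was taken as measured where 4 or more of the 8 channels carried the scanner software's mark for well above background, which held for 74 of 122 member probes (60.7%, against 57.8% of all probes) and for 53 of 86 genes. All 5 SOCS genes and all 3 TNF receptors passed, as did 18 of 23 chemokine ligands. Of the chemokine receptors 5 of 10 passed, of the interleukins 10 of 21, and of the interleukin receptors and chains 6 of 14. Of the TNF superfamily ligands 5 of 7 passed, and of the TNF-induced proteins 1 of 3, TNFAIP8L2. Of the 33 genes that did not pass, 22 had no probe above background in any channel and 11 reached 1 to 3 channels.

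**Figure D1:**
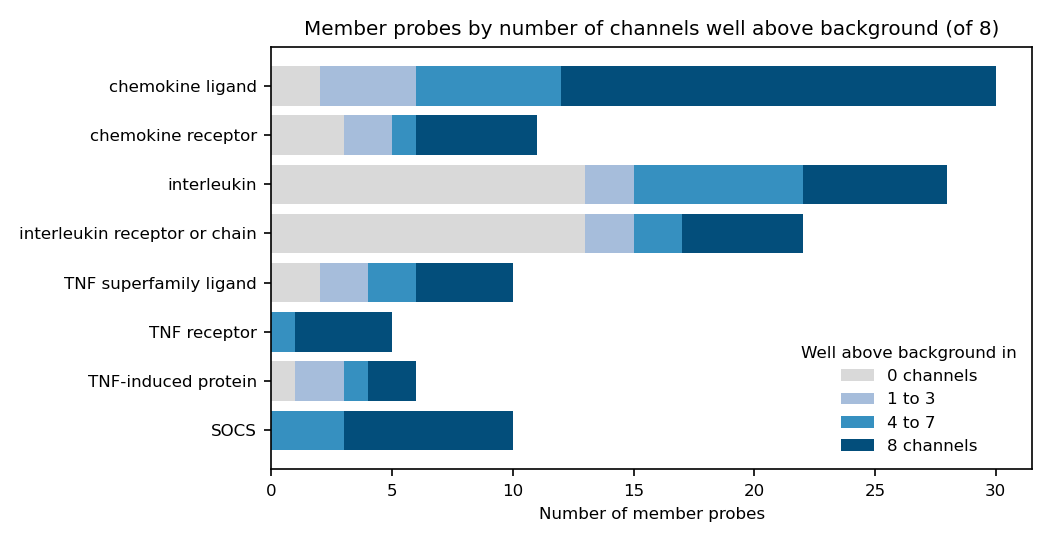
Member probes of each role (vertical axis) counted by the number of the 8 channels in which they were well above background (horizontal axis, number of probes; shade gives the channel class). The interleukins and the interleukin receptors hold 13 probes each with no channel above background, and the SOCS genes and TNF receptors hold none.

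Several ligands were measured where their known receptor was not. CCL25, the ligand of CCR9, was above background in all 8 channels, and CCR9 in 0. CCL19, which acts on CCR7, was above background in 8 channels and CCR7 in 0. IL18 reached 6 channels and its receptor gene IL18R1 none, while the interleukin receptor genes IL4R and IL7R reached 8 and 7 channels and the ligand genes IL4 and IL7 none. CXCL16 was measured in 8 channels and its receptor gene CXCR6 in 2. Other pairs were measured on both sides, among them CXCL12 and CXCR4, and TNF and its receptor genes TNFRSF1A and TNFRSF1B, each in all 8 channels. These statements concern single probes in whole tissue, and a probe below background gives no level. The T cell cytokine genes IL2, IL4, IL13, IL17A and IL21, and IL12A, IL12B and IL23A, which encode subunits of IL-12 and IL-23 made by myeloid cells, were among the genes with 0 channels above background, as were CXCL8 and IL1A. Other T cell cytokine genes were measured, IL5 in 8 channels and, outside the member rule, IFNG in 6 and LTA in 8.

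The number of member probes above background differed between the channels of each array. On arrays 1 to 4 the pregnant channel had 55, 79, 67 and 74 member probes above background and the cyclic channel 86, 72, 77 and 61. The channel with more was the cyclic one on arrays 1 and 3 and the pregnant one on arrays 2 and 4, which is the Cy5 channel each time by the label fields. With pregnant RNA in Cy3 throughout, as the protocol's text has it, the cyclic channel would hold more on all 4 arrays.

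No member passed the adjusted threshold (0 of 53 by limma with Benjamini-Hochberg adjustment over 18891 features, against 0% of all features), and the lowest adjusted p among members was 0.646. A looser threshold, unadjusted p below 0.05 plus a 1.2-fold difference, took 3 members, CCL14 and CCL3L1 lower and IL16 higher in pregnant gilts. That is 5.66% of the tested members, against 7.03% of all features, 2.93% higher and 4.10% lower, so the members as a list were called no more often than the array as a whole. An unadjusted p under 0.05 without the fold was reached by 7.23% of all features and by the same 3 members. Limma's separate-channel fit called 3 features and a background offset of 10 called 2, with 0 members in either. The looser count of members was 0 without array 2, where 3.27% of all features were at that threshold, and 0 when every spot entered the background estimate, where 2.59% were. It was 7 without array 4 (CCL14 lower, and CCL28, CCR1, CXCL9, CXCL10, IL16 and IL18 higher), where 11.6% of all features were. Of all features at the looser threshold 41.6% were higher in pregnant gilts, against 19.6% with median centring and 29.4% with every spot in the background estimate. Members stood on both sides of 0, with 30 estimates above (45.7% of all features) and 23 below (54.3%), and their median was 0.030 against -0.018 for all features. On arrays 1 to 4 the median member ratio was 0.030, 0.076, -0.10 and -0.020.

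**Figure D2:**
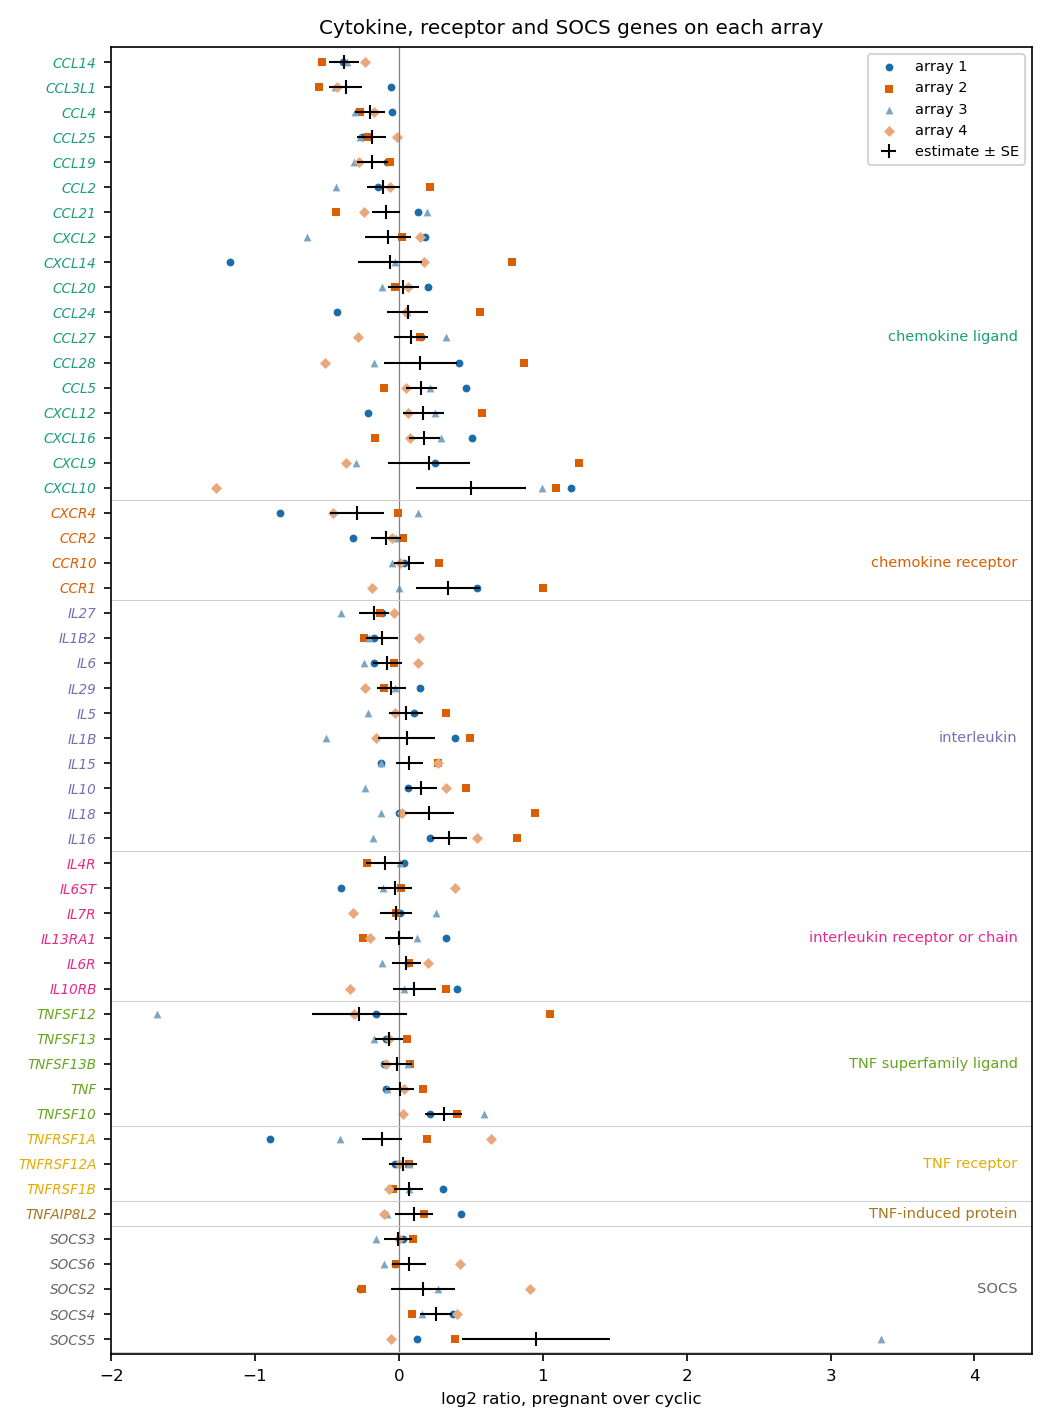
Log2 ratio of pregnant over cyclic intensity (horizontal axis) for 52 of the 53 tested member genes (vertical axis, grouped and coloured by role), with 1 symbol per array and a black bar for the limma estimate and its standard error. Estimates run from -0.38 for CCL14 to 0.95 for SOCS5, and the single ratio of 3.35 for SOCS5 on array 3 lies apart from all others.

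**Figure D3:**
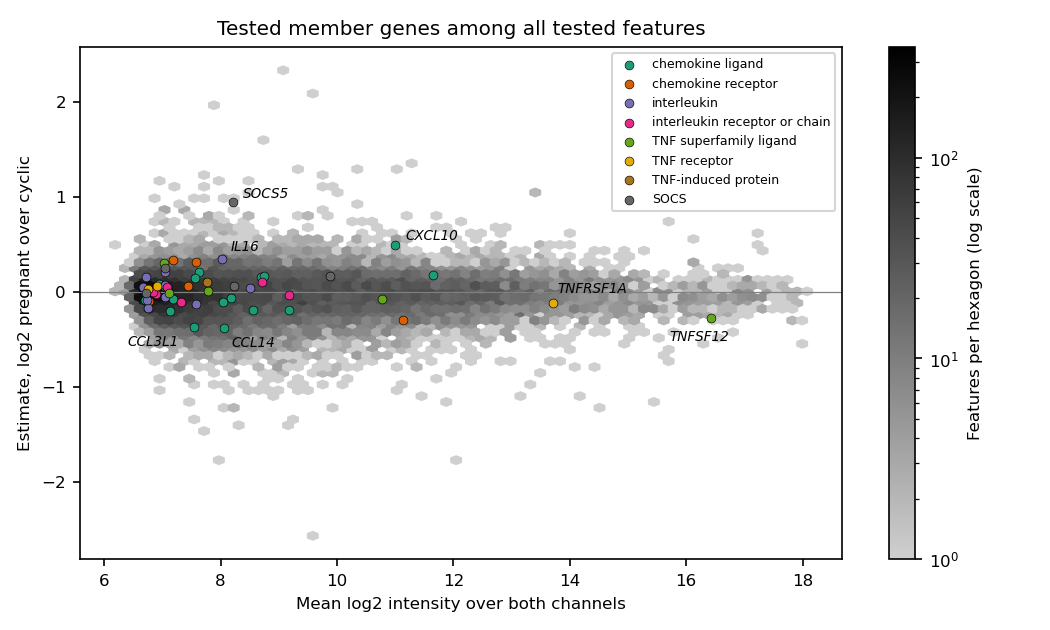
Limma estimate (vertical axis, log2 pregnant over cyclic) against mean log2 intensity over both channels (horizontal axis) for all 18891 tested features as grey hexagons, darker where more features lie, and for the 53 member genes as points coloured by role. Members spread over the same band as the other features, and SOCS5 is the highest member at 0.95.

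Among the CC chemokine ligands, CCL14 was lower in the pregnant gilt on every array. CCL14 is a plasma chemokine that acts on CCR1. Its normalized log2 intensity was 8.24, 8.31, 8.33 and 8.08 in the cyclic gilts of arrays 1 to 4 and 7.85, 7.77, 7.98 and 7.84 in the pregnant gilts. All cyclic gilts lay above all pregnant ones, which held for 1 of 53 members (1.89%) and for 1.92% of all features. The group means were 8.24 ± 0.11 (SD, n = 4) and 7.86 ± 0.086 (SD, n = 4). The ratio was -0.38 ± 0.11, a 1.3-fold difference, with single arrays at -0.39, -0.54, -0.36 and -0.24 (adjusted p = 0.646). Leaving out array 1, 2 or 3 moved it out of the looser count at -0.37, -0.31 and -0.39, estimating the background from every spot gave -0.17, and the single dye orientation gave 0.0061.

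CCL3L1, a close copy of the CCL3 gene whose product acts on CCR1, stood lower on every array as well. Its levels were 7.81, 7.80, 7.81 and 7.52 in the cyclic gilts and 7.75, 7.24, 7.37 and 7.09 in the pregnant gilts. The pregnant gilt of array 1 lay within the cyclic range, and the other 3 lay below it. The ratio was -0.37 ± 0.11 with single arrays at -0.052, -0.56, -0.44 and -0.43 (adjusted p = 0.646). It left the looser count without array 2, 3 or 4, at -0.34, -0.27 and -0.40, and stood at -0.13 when every spot entered the background estimate and at 0.12 under the single dye orientation. Whether the probe also binds RNA of other copies of this gene was not tested, and its value is uncertain to that extent.

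CCL4, CCL25 and CCL19 were the other chemokine ligands below 0 on 4 of 4 arrays. Together with CCL14 and CCL3L1 these were 5 of 18 tested ligands (27.8%), against 7.41% of all features, and 0 ligands were above 0 on 4 arrays, against 6.41%. CCL4, a macrophage inflammatory protein, stood at -0.20 ± 0.10 with arrays at -0.045, -0.27, -0.30 and -0.18. CCL25 stood at -0.19 ± 0.099 with arrays at -0.26, -0.22, -0.27 and -0.014, and CCL19, a ligand that guides lymphocytes to lymph nodes, at -0.18 ± 0.11 with arrays at -0.081, -0.064, -0.31 and -0.28. None of these passed the test (adjusted p = 0.646, 0.646 and 0.654). The median of the 18 ligands was -0.015, with 9 above and 9 below 0. Under the single dye orientation CCL4 stood at 0.024, CCL25 at -0.075 and CCL19 at -0.014.

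CCL4, CCL3L1, CCL14 and CCL5 lie near each other in the pig genome by the RefSeq gene order, CCL4 directly beside CCL3L1. Of these neighbours CCL5, which attracts T cells, stood above 0 at 0.16 ± 0.10, with arrays at 0.47, -0.10, 0.21 and 0.049. Its second probe stood at 0.036 ± 0.11. CCL2, the monocyte attractant that acts on CCR2, stood at -0.11 ± 0.11 with arrays at -0.15, 0.22, -0.44 and -0.060, and its neighbours CCL8 and CCL11 were above background in 3 and 1 channels at most. CCL28, a mucosal chemokine for CCR10, had an estimate of 0.15 ± 0.25 and ran from -0.51 on array 4 to 0.87 on array 2. Adjusted p values of CCL5, CCL2 and CCL28 were 0.679, 0.784 and 0.869.

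CXCL10 had the widest spread of the chemokines, with arrays 1 to 3 high and array 4 low. CXCL10 is an interferon-induced ligand of CXCR3 that draws activated T cells. Its levels were 10.71, 10.37, 10.50 and 11.45 in the cyclic gilts and 11.91, 11.45, 11.49 and 10.18 in the pregnant gilts. The cyclic gilt of array 4 was as bright as the pregnant gilts of arrays 2 and 3, and the pregnant gilt of array 4 was below every other animal. Ratios were 1.199, 1.09, 0.99 and -1.27 on arrays 1 to 4, and a second probe gave 1.42, 0.67, 0.95 and -1.17. The estimate was 0.50 ± 0.38 (adjusted p = 0.703, 95% interval -0.47 to 1.47), so the difference was within the spread between pairs. It was 1.09 without array 4, where it entered the looser count, and -0.089 without array 2, in a fit where array 4 then counted as much as arrays 1 and 3 together. The single dye orientation gave 0.59.

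CXCL9, the neighbouring interferon-induced ligand of the same receptor, did not share that pattern: its arrays were at 0.25, 1.25, -0.30 and -0.37, with array 2 alone clearly high, and the estimate was 0.21 ± 0.28 (adjusted p = 0.836). CXCL11, the third gene of that neighbourhood, was above background in 1 channel. CXCL16, a membrane-bound chemokine, stood at 0.18 ± 0.11 with arrays at 0.51, -0.17, 0.29 and 0.075, and its second probe gave 0.51, -0.15, 0.30 and 0.062, nearly the same on each array. CXCL12, the ligand of CXCR4, stood at 0.17 ± 0.14 with arrays at -0.21, 0.58, 0.25 and 0.066. CXCL14 had an estimate of -0.060 ± 0.22, with arrays at -1.18, 0.78, -0.024 and 0.17. Adjusted p values were 0.659, 0.733 and 0.947 for CXCL16, CXCL12 and CXCL14.

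**Figure D4:**
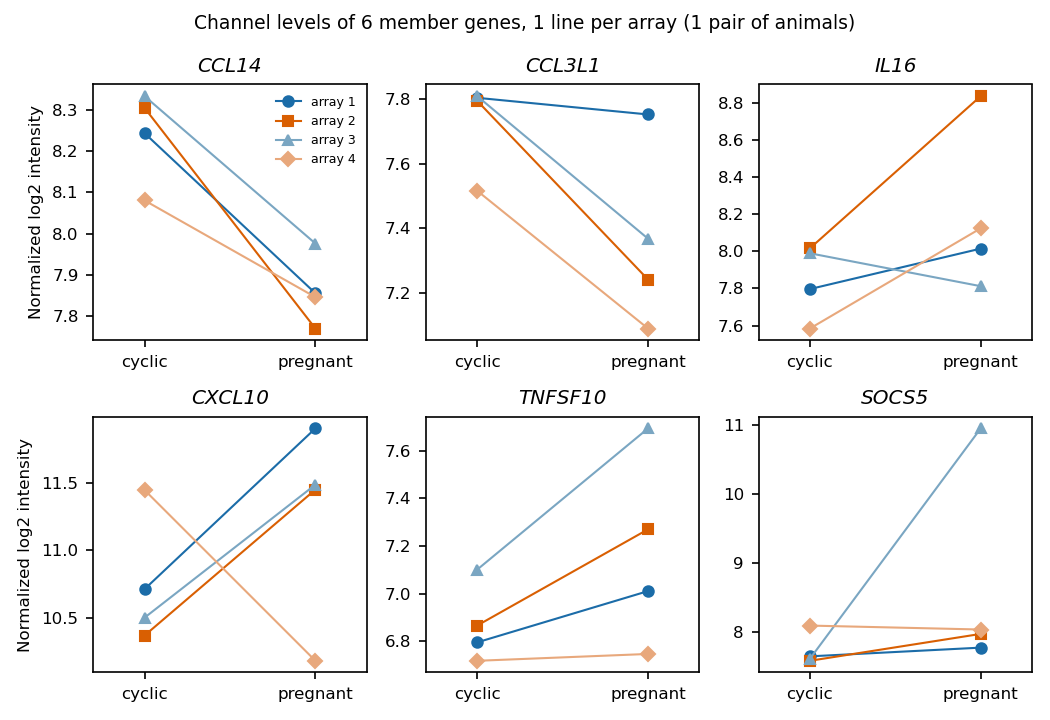
Normalized log2 intensity (vertical axis, own scale in each panel) in the cyclic and the pregnant channel (horizontal axis) for 6 member genes, with 1 line per array, which joins 1 pair of animals. The lines of CCL14 all fall and its groups do not overlap, while CXCL10 rises on 3 arrays and falls on array 4 and SOCS5 stands out on array 3 alone.

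No chemokine receptor passed the test (0 of 5 called, and 0 at the looser threshold). CCR1, a receptor of myeloid cells, stood at 0.34 ± 0.22 with arrays at 0.54, 1.00, 0.0037 and -0.19, and its second probe at 0.31 ± 0.21. Array 2 was the highest and array 4 the lowest. CXCR4, the CXCL12 receptor, stood at -0.29 ± 0.19 with arrays at -0.82, -0.0088, 0.13 and -0.46, below 0 on 3 of 4. Their adjusted p values were 0.675 and 0.673. CXCR4 entered the looser count without array 3, at -0.53, and CCR1 without array 4, at 0.64. CCR1 and CCR2 are close neighbours by the RefSeq gene order, and CCR3, CCR9, CXCR6 and CCRL2 of the same neighbourhood were not measured in enough channels to be tested.

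IL16 was the interleukin with the lowest p, higher in pregnant gilts on 3 of 4 arrays. IL16 is a chemoattractant that binds CD4. Its levels were 7.80, 8.02, 7.99 and 7.58 in the cyclic gilts and 8.01, 8.84, 7.81 and 8.12 in the pregnant gilts. The groups overlapped, and the pregnant gilt of array 2 lay above the rest. The ratio was 0.35 ± 0.12 with arrays at 0.22, 0.82, -0.18 and 0.54 (adjusted p = 0.646). The arrays with pregnant RNA in Cy5 stood higher than the other 2, and without the dye term IL16 left the looser count at the same 0.35. It also left it without array 1 or 2, at 0.25 and 0.28, with median centring, at 0.25, and when every spot entered the background estimate, at 0.023. The single dye orientation gave -0.33.

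No other interleukin was at the looser threshold. IL18, an interleukin-1 family cytokine, was at 0.0028, 0.95, -0.12 and 0.019 on arrays 1 to 4, so array 2 alone set its estimate of 0.21 ± 0.17. The second IL18 probe gave 0.040, 0.80, -0.12 and 0.25. Both probes were above background in 6 channels, and the cyclic level on array 2 was the lowest, at 6.44. IL27 was below 0 on 4 of 4 arrays at -0.12, -0.13, -0.40 and -0.031, with an estimate of -0.17 ± 0.11, and it was above background in 2 of the 4 pregnant and all 4 cyclic channels. IL10, an inhibitor of inflammatory cytokine production, stood at 0.16 ± 0.11, IL6 at -0.079 ± 0.098 and IL1B, the main inflammasome product, at 0.054 ± 0.20. These 3 genes were above background in 5 channels each, and IL1B ran from -0.51 on array 3 to 0.49 on array 2. Adjusted p values were 0.726 for IL18, 0.663 for IL27, 0.684 for IL10, 0.819 for IL6 and 0.947 for IL1B.

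Interleukin receptors and chains stood close to 0, with estimates from -0.099 to 0.11 over 6 genes, with 0 called and 0 at the looser threshold. IL4R, the alpha chain of the interleukin-4 receptor, stood at -0.099 ± 0.13 from arrays 1 to 3, which were at 0.038, -0.22 and 0.0094. Its spot on array 4 was marked as an outlier and left out. IL6ST, which encodes the shared chain gp130, stood at -0.028 ± 0.12 with arrays at -0.40, 0.013, -0.11 and 0.39 and red above green on all 4 arrays. The 95% interval was -0.45 to 0.25 for IL4R and -0.33 to 0.28 for IL6ST, and adjusted p was 0.831 and 0.954.

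Of the TNF superfamily ligands TNFSF10, the death ligand TRAIL, was above 0 on 4 of 4 arrays. Its levels were 6.80, 6.87, 7.10 and 6.72 in the cyclic gilts and 7.01, 7.27, 7.69 and 6.75 in the pregnant gilts. The groups overlapped, and each pregnant gilt lay above the cyclic gilt of its own array, on array 4 by little. Signal was near background, with 4 of 4 pregnant and 3 of 4 cyclic channels well above it. The ratio was 0.31 ± 0.13 with arrays at 0.22, 0.40, 0.59 and 0.029 (adjusted p = 0.646), and a second probe gave 0.20, 0.40, 0.42 and 0.072 and an estimate of 0.27 ± 0.11. It entered the looser count with the scanner's processed signals, at 0.61, with a background offset of 10, at 0.44, and in 4 other settings, and the single dye orientation gave 0.094.

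TNFSF12, which encodes TWEAK, had one of the widest spreads among the members. Its levels were 16.54, 15.93, 17.10 and 16.74 in the cyclic gilts and 16.38, 16.98, 15.42 and 16.43 in the pregnant gilts. The pregnant gilt was the brighter one on array 2 and the dimmer one on the other 3, most of all on array 3. The ratio was -0.27 ± 0.33 with arrays at -0.16, 1.05, -1.68 and -0.31 (adjusted p = 0.814). Growth hormone, GH1, had array ratios of -0.29, 0.74, -2.50 and -0.083, with the highest and the lowest on the same arrays as TNFSF12, and so did POMC, at -0.55, 0.64, -0.84 and 0.31. Prolactin, PRL, did not, at -0.77, -0.38, 0.19 and -0.29, with its highest on array 3. Of the other endocrine markers CGA had its highest and lowest on those arrays too, while LHB, FSHB and TSHB did not have both there. TNFSF13, the B cell factor APRIL and the gene next to TNFSF12, stood at -0.069 ± 0.097 with arrays at -0.089, 0.056, -0.17 and -0.071. TNF itself stood at 0.0076 ± 0.096 with arrays at -0.090, 0.17, -0.082 and 0.035 from 1 probe, while its other probe was above background in 0 channels. Adjusted p was 0.843 for TNFSF13 and 0.985 for TNF.

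TNFRSF1A, the main receptor of TNF, had by the label fields a dye effect larger in size than its ratio. Red exceeded green on 4 of 4 arrays, as for 5 of 53 members (9.43%, against 11.9% of all features), and its dye effect of 0.54 stood beside a ratio of -0.12 ± 0.14 with arrays at -0.89, 0.20, -0.41 and 0.64 (adjusted p = 0.813). Its other probes were at 0.31, -0.080, 0.015 and -0.35 and at -0.20, -0.43, -0.079 and -0.30, so neither showed the pattern of the brightest probe. Their estimates were -0.024 ± 0.11 and -0.25 ± 0.10, the latter below 0 on 4 of 4 arrays. The single dye orientation gave -0.54 and put TNFRSF1A in the looser count. The dye effect was larger in size than the pregnant effect for 30 of 53 members (56.6%, against 51.4% of all features). TNFAIP8L2, a negative regulator of innate signalling, stood at 0.11 ± 0.13 with arrays at 0.43, 0.18, -0.079 and -0.10 (adjusted p = 0.817). Its other probes stood at 0.31 ± 0.12, with arrays at 0.66, 0.32, 0.31 and -0.050, and at 0.11 ± 0.14. The first of these put TNFAIP8L2 in the looser count where every probe was its own feature.

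All 5 SOCS genes were measured, and 4 had estimates above 0, but none was at the looser threshold (0 of 5). SOCS4 was above 0 on 4 of 4 arrays at 0.26 ± 0.11, with arrays at 0.38, 0.093, 0.16 and 0.40 and its other 2 probes at 0.068 ± 0.11 and 0.17 ± 0.10. SOCS2, which restrains growth hormone receptor signalling, stood at 0.17 ± 0.22 with arrays at -0.27, -0.25, 0.27 and 0.91. Its second probe stood at 0.33 ± 0.14 with arrays at 0.56, -0.29, 0.67 and 0.40, so the probes differed in sign on array 1. SOCS3, the feedback inhibitor of gp130 signalling, stood at -0.0075 ± 0.10 with arrays at 0.030, 0.095, -0.16 and 0.0032. The single dye orientation gave 0.011 for SOCS4. Adjusted p was 0.646 for SOCS4, 0.832 for SOCS2 and 0.985 for SOCS3.

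SOCS5 had the highest single ratio of all members, on 1 array and 1 probe. Its levels were 7.64, 7.58, 7.60 and 8.09 in the cyclic gilts and 7.77, 7.97, 10.95 and 8.03 in the pregnant gilts. The pregnant gilt of array 3 stood far above the other 7 animals, which overlapped. The estimate was 0.95 ± 0.51 with arrays at 0.13, 0.39, 3.35 and -0.057 (adjusted p = 0.646). A second SOCS5 probe, above background in all 8 channels, was at 0.045, 0.11, 0.14 and -0.27 with an estimate of 0.0067 ± 0.11, so it did not show the value of array 3. Without array 3 the brighter probe stood at 0.15, and without array 1, where array 3 alone carried its dye orientation, at 1.76. The single dye orientation gave 0.79.

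Where a member had several tested probes, these mostly gave the same side of 0. The other tested probes numbered 21 in 18 genes. The estimates of 20 shared the sign of the probe that stood for the gene, IL6ST being the exception. Single arrays could differ, as array 1 did for the SOCS2 probes. Probes of 1 gene measure the same animals on the same arrays, so this is no replicate of the groups. Detection differed more: 7 genes had both a tested and an untested probe, among them TNF, IL10, IL6R, IL7R and IL1B2. IL6R, the interleukin-6 receptor, had 1 probe above background in 8 channels and 2 probes in none, as did IL1B2.

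**Figure D5:**
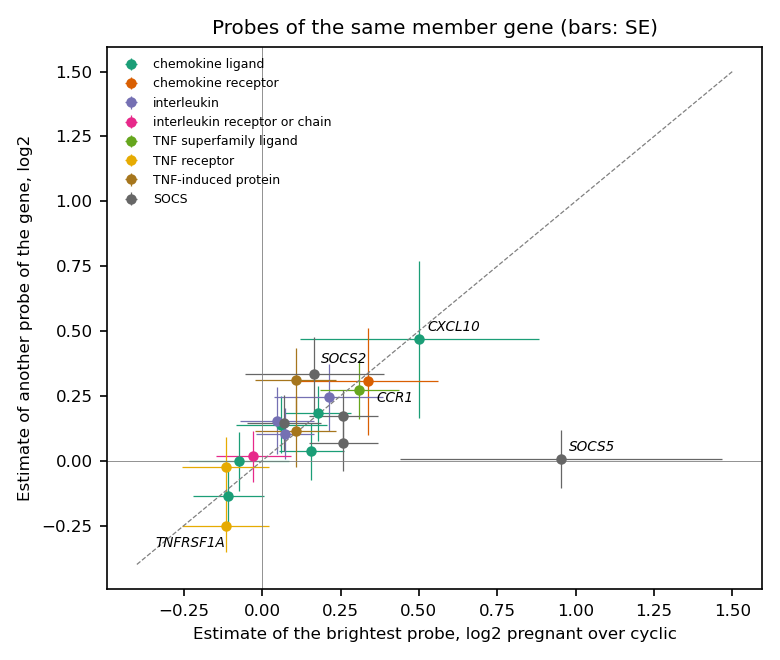
Estimate of another tested probe of a gene (vertical axis) against that of the brightest probe (horizontal axis), both log2 pregnant over cyclic with standard error bars, for the 18 member genes with several tested probes; the dashed line marks equal values. Both CXCL10 probes lie near the line, while the SOCS5 probes lie 0.95 apart.

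The remaining 19 tested members had estimates between -0.12 and 0.11, 12 above and 7 below 0, and adjusted p between 0.756 and 0.9996. The genes given above outside the naming rule (CCL2, CCL4, CCL5, CCL25, CCL28, CXCL9, CXCL14, CCR1, IL1B, IL6, IL10, IL18, IL27, SOCS3 and TNF) were chosen after their values were seen. The span of a member's 4 ratios had a median of 0.57, against 0.59 for all features, and 3 members (SOCS5, TNFSF12 and CXCL10) spanned at least 2, which is 5.66% against 2.23% of all features. Signs were shared by all 4 arrays for 8 of 53 members (15.1%), 2 higher and 6 lower, against 13.8% of all features.

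Genes of cytokine signal transduction were measured as well. All 24 listed transducers with a probe were tested, 14 above and 10 below 0, and 0 were called. At the looser threshold 2 of the 24 were higher and 2 lower, against 2.93% and 4.10% of all features. NFKBIA, the inhibitor of NF-kappaB, stood at 0.35 ± 0.10, above 0 on 4 of 4 arrays at 0.66, 0.15, 0.37 and 0.20. IKBKG, the NEMO subunit of the IkappaB kinase, stood at -0.33 ± 0.12 and RELA, the p65 subunit of NF-kappaB, at -0.28 ± 0.10. RELA was at -0.0016, -0.74, 0.10 and -0.47 on arrays 1 to 4, and its dye effect was -0.33. The single dye orientation would turn the sign of RELA and keep that of NFKBIA and IKBKG, whose dye effects were -0.17 and 0.087. These 3 genes had an adjusted p of 0.646 each.

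Of 29 other cytokines and cytokine receptors with a probe 19 were tested, 9 above and 10 below 0, and 0 were called. At the looser threshold 2 of the 19 were higher and 2 lower, against 2.93% and 4.10% of all features. KIT, the stem cell factor receptor, stood at 0.57 ± 0.12 with arrays at 0.20, 1.24, 0.10 and 0.75. Arrays 2 and 4 were its highest, and its dye effect of 0.42 means that the single dye orientation would turn its sign. IFNGR2, the second chain of the interferon-gamma receptor, stood at 0.27 ± 0.095, above 0 on 4 of 4 arrays at 0.32, 0.25, 0.34 and 0.19. CD74, a receptor of the cytokine MIF and the MHC class II invariant chain, stood at -0.63 ± 0.21 with arrays at -0.67, -1.29, -0.44 and -0.11, and FAS, a death receptor of the TNF receptor superfamily, at -0.30 ± 0.11 with arrays at -0.23, -0.11, -0.38 and -0.49. The single dye orientation would also turn the sign of CD74, whose dye effect was -0.071. IFNGR2 and FAS would keep their signs, with dye effects of -0.054 and 0.0027. Adjusted p was 0.646 for each of KIT, IFNGR2, CD74 and FAS.

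Markers of leukocytes stood on both sides of 0, and their part in the values above was not tested. Fewer cells of a type and less RNA per cell cannot be told apart in whole tissue. Of 11 T and NK cell markers with a probe 7 were tested, while CD2, CD3D, CD4 and CD69 were not above background in enough channels. Their median ratio was 0.20, 0.099, -0.039 and 0.15 on arrays 1 to 4, and their summed log2 level ran from 11.85 to 12.38 in pregnant and from 11.97 to 12.37 in cyclic gilts. Of the 7, 4 were above and 3 below 0, with KLRK1, an NK cell receptor, at 0.36 ± 0.15 and CD8A at 0.23 ± 0.11, and with GZMB, NKG7 and CD247 at -0.24 ± 0.12, -0.15 ± 0.11 and -0.088 ± 0.12. Macrophage markers, 4 above and 6 below 0, had medians of 0.040, 0.16, -0.088 and -0.036, with summed levels from 13.11 to 13.88 and from 13.20 to 13.81. AIF1, the macrophage marker IBA1, stood at 0.38 ± 0.14, above 0 on 4 of 4 arrays, and CD163, a scavenger receptor, at -0.37 ± 0.21. Of 3 B cell markers with a probe CD79A alone was tested, at -0.69 ± 0.25 with arrays at -1.21, -1.20, -0.44 and 0.068, and MS4A1 was not above background in enough channels. AIF1 and CD79A were at the looser threshold, as were 7.03% of all features. Of these markers 0 were called, and the listed markers of all leukocytes had no probe with a symbol. The single dye orientation would turn the sign of AIF1 and keep that of CD79A, with dye effects of 0.081 and 0.13.

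Endothelial, stromal, folliculostellate and neutrophil markers had 10 genes tested and 0 at the looser threshold. VWF and CDH5 of the endothelium stood at -0.24 ± 0.11 and 0.51 ± 0.25, COL1A2 and DCN of the stroma at -0.44 ± 0.21 and -0.10 ± 0.16, and CD9 and SOX2 at 0.14 ± 0.11 and -0.14 ± 0.11. The neutrophil markers S100A8, S100A9 and S100A12 were not above background in enough channels, and ITGB2, shared by leukocytes, stood at 0.28 ± 0.13 with arrays at 0.52, 0.48, 0.12 and 0.030. Of the 7 endocrine markers 1 was above and 6 were below 0. Of these 1, LHB, was at the looser threshold at -0.42 ± 0.15, where 4.10% of all features were lower. PRL stood at -0.31 ± 0.18 and FSHB at 0.42 ± 0.50, the latter with arrays at -0.38, 0.35, 2.53 and -0.84. TSHB stood at -1.10 ± 1.37 with arrays at -1.67, 4.48, -3.02 and -4.20. OXT and PCSK2, markers of the other lobes, stood at -0.36 ± 0.16 and 0.40 ± 0.49, with PCSK2 at 1.43, -0.55, -0.82 and 1.56, and AVP was not above background in enough channels.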

How the data were processed

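RNA of whole anterior pituitary was measured on 4 two-colour arrays, each holding both groups. Images were quantified by version 10.7.3.1 of Agilent Feature Extraction, as the headers give it. The deposited files hold the median intensity of each spot and its background in both channels, and processed intensity after the scanner software's background subtraction and dye normalization, per the file headers. The table the authors deposited gives log2 ratios. On all 43553 probes spotted singly and all 4 arrays it equalled log2 of processed red over green within 0.001, with the sign turned on arrays 1 and 3, so it gives pregnant over cyclic when the label fields hold. The medians of its columns were 0.150, -0.0102, 0.0650 and -0.0726, and no further centring was found. The genome build is not applicable per the file headers, so no coordinates are given.

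Background was corrected by normexp (offset 50), on median in place of the planned mean intensities, with parameters from spots not marked as outliers. Ratios were normalized by loess (span 0.3, 1417 control spots at weight 0). Outlier spots (95 to 221 per array) were left out, and spots of a probe were averaged. The 25199 probes with 4 or more of 8 channels well above background were kept, and 4 features measured in only 1 dye orientation were left out. RefSeq names of Sscrofa11.1 gave 6700 probes 1 symbol each (3029 genes). Unnamed probes kept the file's identifier, and the brightest probe stood for a gene or identifier, which left 18891 features. Limma's lmFit and eBayes estimated pregnant over cyclic beside a dye effect, and p-values were adjusted by Benjamini-Hochberg over all features (threshold 0.05). Channel levels are log2 intensities after loess and Aquantile. Probe brightness served only to choose probes and named members. Tools were R 4.3.3, limma 3.58.1 and matplotlib 3.10.9, and the fit was tested on simulated data.

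Named members had an unadjusted p under 0.05, or 1 sign on 4 arrays with an estimate of at least 0.26, or were among the 10 brightest, had the lowest p of their role, spanned at least 2, or were above background in all channels of 1 group and none of the other (0 genes). Of the marker and pathway lists, genes at an unadjusted p under 0.05 and the 2 of lowest p were named. From those lists GZMB, NKG7, CD247, GH1, POMC, CGA, FSHB, TSHB, IFNG and LTA were given outside that rule. Genes that are not reported here by name still count in all totals. Members and lists were chosen with earlier results of these data known. The labels mention no pooling. The p-values rest on the spread between these arrays that the dye effect leaves, moderated by limma with the spread of all features. Alternatives were the dye term, dye orientation, background, normalization, filter, model, probe choice and leaving out each array.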

Additional observations from a re-analysis of the deposited data

Results flagged for a closer look

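Ratios of 3 named genes had 1 array far from the other 3, by Dixon's gap test at the 95% level. Of the 34 genes looked at, IL4R had ratios on 3 arrays only and was not tested. Chance gives such a gap in about 1 of 20 groups. That rate does not apply here, since SOCS5 and CXCL10 were named for their wide span and IL18 after its values were seen. CXCL10 stood at -1.27 on array 4, against 0.99 to 1.199 on the others, and its second probe was at -1.17 there. SOCS5 stood at 3.35 on array 3, against -0.06 to 0.39, with the second probe at 0.14. IL18 stood at 0.95 on array 2, against -0.12 to 0.02, and its second probe was at 0.80 there. The cyclic level of IL18 on array 2, 6.44, was the lowest of its 8 channels. The pregnant level there was 7.39, below the 7.67 of array 4. Both IL18 probes were above background in only 6 of 8 channels. No cause was tested for any of these values.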

How the results depend on the processing

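No member was called by limma's adjusted threshold in any of the 18 alternatives (0 in each), with the lowest adjusted p of a named member at 0.127 for SOCS5 without array 1. The count of all called features was 0 as well, except 2 with a background offset of 10 and 3 with separate channels. The looser count of 3 members became 5 with a background offset of 10 and 0 with background parameters from all spots, and leaving out 1 array gave 0 (without array 2) to 7 (without array 4); in the other settings it was 2 to 4. Background parameters from all spots lowered that count over all features from 1328 to 490, and it was 643, 618 and 2181 without arrays 1, 2 and 4. The median member ratio moved to -0.066 under the single dye orientation. With median centring 19.6% of the features at the looser threshold were higher, against 41.6%, and members there were 0 higher and 2 lower. Genes whose sign changed under the single dye orientation included SOCS2 -0.16, TNF -0.094, CCL14 0.0061, CCL3L1 0.12, CCL4 0.024, CXCL12 -0.15, CXCL9 -0.23, CCL28 -0.028, CCR1 -0.066, IL16 -0.33, IL10 -0.24, IL18 -0.27, IL1B -0.11 and IL4R 0.090. With background parameters from all spots they were TNFSF12 0.027, TNF -0.030, CXCL9 -0.013, IL10 -0.043, IL18 -0.019, IL1B -0.074 and IL4R 0.0029. Median centring gave TNF -0.094 and TNFAIP8L2 -0.025, no background correction TNF -0.011, and the scanner's processed signals IL1B -0.20 and IL6ST 0.034. With 1 array left out the ranges that crossed 0 were TNFRSF1A -0.24 to 0.0051, TNFAIP8L2 -0.021 to 0.23, CXCL14 -0.35 to 0.23, IL1B -0.17 to 0.28, IL6ST -0.12 to 0.066, TNF -0.026 to 0.041, CXCL10 -0.089 to 1.09, CXCL9 -0.20 to 0.61, CCL28 -0.20 to 0.50, IL18 -0.020 to 0.44, SOCS3 -0.054 to 0.039, TNFSF12 -0.66 to 0.11 and SOCS2 -0.13 to 0.46. The cause of these changes was not tested, beyond the turned ratios of arrays 2 and 4 in the single dye orientation. The ratio within each array is itself the paired comparison of 1 pregnant and 1 cyclic gilt, so no further replicate block was added. Signal near background limits IL1B, IL6 and IL10, above background in 5 of 8 channels. It also limits SOCS3 and IL27, above background in 7 and 6 channels, whose mean log2 intensities of 6.72 and 6.75 were near the 6.73 of IL6. TNFSF10 and IL18, above background in 7 and 6 channels, are limited on single arrays. On array 4 TNFSF10 stood at 6.75 in the pregnant and 6.72 in the cyclic gilt. On array 2 IL18 stood at 6.44 in the cyclic gilt. Over the alternatives that kept all arrays SOCS3 ran from -0.45 to -0.0063.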
